A study of Danio rerio with 4 samples.

Results

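Endothelial cells line the blood and lymphatic vessels of the zebrafish trunk. They were a small fraction of the single cells sequenced here, and were followed in wild type (WT) and flt1 mutant embryos. Members were chosen by measured values, namely by UMIs (unique molecular identifiers, each standing for 1 captured transcript) of 11 endothelial genes. A barcode was retained when more than 200 but fewer than 4000 genes had a UMI and mitochondrial genes took less than 5% of its total. A retained barcode was an endothelial cell when at least 3 of cdh5, tie1, pecam1, clec14a, kdrl, plvapb, sox7, etv2, egfl7, she and esama had a UMI and 5 embryonic globins together held under 30% of its UMIs. This rule found 145 endothelial cells among 19611 retained cells (0.739%) and 32486 barcodes.

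All embryos were 3 days post-fertilization (dpf), heads had been removed, and the trunks were dissociated with trypsin and collagenase before droplet sequencing of transcript 3' ends. There were 2 libraries of WT trunks and 2 of flt1 mutant trunks, and no shared clutch or day was stated for them. The labels give the mutants as flt1 without an allele. The study's methods name flt1ka604 and flt1ka602, small deletions in exon 3 with an early stop codon, by which the membrane and the soluble form of the receptor both lose function. The mutation is carried by every cell of the embryo, and the libraries hold no vessel position, so intersegmental vessels, the dorsal aorta and the cardinal vein were not separated.

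Flt1 binds Vegfa without passing on a strong signal, and its soluble form holds Vegfa away from Kdrl, the receptor through which Vegfa drives sprouting. Arteries use Notch signalling from ligands such as Dll4, and the tip cell of an arterial sprout is marked by dll4, esm1 and cxcr4a. Veins and lymphatics carry Flt4, the Vegfc receptor, and in zebrafish the scavenger receptors Stab1, Stab2 and Mrc1a, which clear material from blood and tissue fluid.

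The 4 libraries held 23 and 53 endothelial cells in WT and 30 and 39 in flt1 mutants (replicates 1 and 2 in that order, as for all values below). Median depth per endothelial cell was 6945 and 8760 in WT, 7830 and 10661 in mutants, from summed totals of 188359, 554237, 268716 and 435011 UMIs. The single deepest cell held between 5.55% and 14.6% of the endothelial UMIs of its library. Replicate sums differed by more than counting noise, with a chi-square per degree of freedom of 4.87 between the WT libraries and 6.51 between the mutant libraries. Between 34 and 58 barcode sequences of each library also occurred in another library, and 1 of them belonged to an endothelial cell. No doublet caller was run on so few cells.

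The label endothelial rests on the 11 markers that made the rule. Of the 145 cells, 108 had 7 or more of them, 35 had all 11, 5 had 6 and 32 had 3 to 5. Low marker numbers were not confined to cells of low depth. A cell of flt1 mutant replicate 2 with 23720 UMIs and a cell of WT replicate 1 with 10512 UMIs each had 3 markers, and the label is less sure for such cells. VE-cadherin (cdh5), the adhesion molecule of endothelial junctions, was at 1327, 958, 808 and 901 CPM (UMIs per 1000000 UMIs of the endothelial sum of a library) and was detected in 127 of the 145 cells. In the remaining retained cells its mean was 0.335 CPM, so that 96.0% of all cdh5 UMIs in retained cells lay in the endothelial cells. The corresponding share was 96.1% for clec14a, 93.3% for plvapb, a protein of fenestral diaphragms, and 92.4% for pecam1. The share was 8.999% for sox7, a Sox factor of vessels that had 54.3 CPM in the remaining cells. These values repeat what the rule selected on and carry no test.

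**Figure D1:**
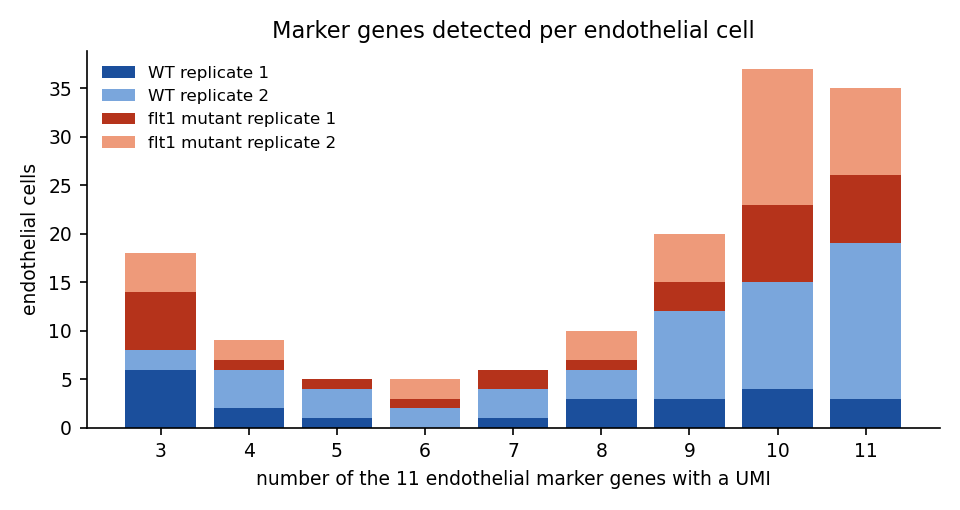
Number of endothelial cells (vertical axis) by how many of the 11 marker genes had a UMI (horizontal axis), stacked by library. The 35 cells with all 11 markers sit at the right and the 18 cells at the limit of 3 markers at the left.

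At the limit of the rule, 18 cells had 3 markers with a median of 4978 UMIs. Just outside, 167 retained cells had 2 markers with a median of 12123 UMIs, and 1 barcode was removed by the globin limit. A high share of muscle UMIs went with few markers and low depth. Over 5% of UMIs came from muscle genes such as actc1b and the parvalbumins in 15 members, and 13 of these had fewer than 6 markers. The deepest of the 15 had 3751 UMIs, against a median of 8756 over all members. A share rises when a cell's total is low, so these values do not show more muscle RNA per cell. Another 4 members held over 5% from epidermal genes. Among them were the deepest cells of WT replicate 2 (4 markers, 42.8% epidermal UMIs) and of flt1 mutant replicate 1 (3 markers, 43.5%). These held 7.97% and 14.6% of the endothelial UMIs of their libraries. Over the whole endothelial sums, muscle genes took 0.793% to 1.44% of UMIs against 7.93% to 18.5% in the remaining cells. Epidermal genes took 0.490% and 3.98% in WT and 6.82% and 1.57% in mutants, with medians per cell of 0.511% to 0.724%. Fibroblast and mural genes took 0.532% and 0.0617% in WT and 0.250% and 0.230% in mutants. The remaining cells had 0.463% and 0.368% in WT and 0.403% and 0.393% in mutants, so this content was not low in every library. Medians per cell were 0.0137% to 0.0184%, and the highest cell, in WT replicate 1, held 4.56%. Myeloid genes took at most 0.00425%, and spi1b, marco and csf1ra were at 0 in every library. Numbers of called genes without the members of high muscle or epidermal content are given below for the genotype and the artery-vein comparisons. Values of single genes include those members.

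Outside the rule's own genes, 63 genes exceeded the remaining cells by over 10-fold in every library among the 986 genes that reached 100 CPM in the endothelial cells of all 4 libraries. The 20 of largest ratio were led by vein and lymphatic genes. The hyaluronan receptor lyve1b was at 425 and 256 CPM in WT and 409 and 264 CPM in mutants, against a mean of 0.0595 CPM in the remaining cells. E-selectin (sele), which tethers leukocytes, was at 504 and 437 CPM in WT and 168 and 251 CPM in mutants, against 0.0901 CPM. The scavenger receptors stab2 and stab1, lyve1a, the chemokine-binding receptor gpr182 and the endocytic adaptor dab2 were in the same 20.

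The artery genes among the 20 were cldn5b, a tight junction claudin, dll4, and aqp8a.1, a water channel. Cldn5b was even across libraries at 1163, 1027, 1392 and 1191 CPM and was detected in 109 of the 145 cells. Aqp8a.1 was uneven at 271, 992, 3167 and 1871 CPM, came from 29 cells, and 31.4% of its UMIs came from 1 cell. The rest were rasip1, which acts in lumen formation, the Cdc42 exchange factor fgd5a, the ETS factor fli1b, bcl6b, myct1a, tnfaip2b, grapa, flt1, si:ch211-145b13.6 and si:dkeyp-97a10.2. Since every gene of these cells counts as used by the rule, the ratios are a description with no test.

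The targeted gene flt1 was counted with 28 and 99 UMIs in the endothelial cells of the WT libraries, and with 44 and 64 in those of the mutants. Scaled by TMM (trimmed mean of M-values, which corrects the library total for composition), this was 155 and 204 CPM in WT and 181 and 160 CPM in mutants, and the ranges overlapped. The log2 fold change of mutant over WT was -0.10 ± 0.25 (SE, 2 libraries per genotype, adjusted p = 0.992, edgeR quasi-likelihood test). Because 3' end counts lie outside exon 3, this level does not check the genotype of the libraries. Flt1 was detected in 63 of 145 endothelial cells (43.4%) against 0.464% of neurons. Median depth was 4657 UMIs in these neurons and 8756 UMIs in the endothelial cells. The paper cites venous hypersprouting after flt1 was inactivated in neural cells, so neurons are a comparison here and not cells known to lack it.

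Among the Vegf receptors, kdrl stood at 530 and 692 scaled CPM in WT and 646 and 622 scaled CPM in mutants, and it was itself one of the 11 markers. It was detected in 126 of 145 endothelial cells (86.9%, against 1.01% of neurons). Flt4 was at 88.3 and 169 scaled CPM in WT and 90.6 and 120 scaled CPM in mutants, with a log2 fold change of -0.34 ± 0.36 (adjusted p = 0.943). None of the 7 tested receptors and neuropilins had a p-value under 0.05, and their median log2 fold change was -0.10 against -0.02 over all genes tested. The ligand vegfaa had 1, 7, 2 and 5 UMIs and was detected in 8.28% of endothelial cells against 6.97% of neurons. The paper names neural cells as a source of Vegfa, so this share in neurons is not a background level.

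The apelin receptors, the G protein-coupled receptors through which Apelin acts on vessels, were found in part of the endothelial cells with kdrl, itself a marker of the rule. Of the 145 cells, 85 had UMIs of both kdrl and aplnra, 41 of kdrl only, 7 of aplnra only and 12 of neither. Aplnrb was found with kdrl in 56 cells and without it in 0, and 47 cells held both receptors. Detection was 63.4% for aplnra and 38.6% for aplnrb, against 1.93% and 2.24% of neurons. Aplnra was at 409 and 297 scaled CPM in WT and 371 and 502 scaled CPM in mutants, and aplnrb at 93.9 and 155 against 119 and 89.96 scaled CPM. Both overlapped between genotypes (log2 fold changes 0.32 ± 0.28 and -0.32 ± 0.33, adjusted p = 0.922 and 0.938, edgeR).

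The ligand apln was found in 28 endothelial cells (19.3%, against 6.35% of neurons), from 1 and 33 UMIs (WT) and 13 and 16 UMIs (mutants). The paper reports apln in spinal cord neural cells, so the share in neurons is not a background level for it. The second ligand, apela, was found in 2 cells (1.38%), no more than in neurons (1.63%). Trioa, an exchange factor that activates Rac, was found in 16.6% of endothelial cells against 11.8% of neurons, from 4 and 14 UMIs (WT) and 3 and 5 UMIs (mutants), too few to enter the test. Its target rac1a was found in 72.4% and was at 188 and 192 scaled CPM in WT and 169 and 192 scaled CPM in mutants (log2 fold change -0.07 ± 0.22, adjusted p = 0.998).

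The endothelial cells divided by which of 2 gene lists they held more of. Artery genes were dll4, dlc, hey2, efnb2a, tbx20, cldn5b, aqp8a.1, gja5b, unc5b and mecom, and vein and lymphatic genes were flt4, stab1, stab2, mrc1a, lyve1b, dab2, ephb4a, nr2f2, prox1a and tll1. By UMIs of these lists, 86 cells were artery-leaning, 51 vein-leaning and 8 tied. UMIs of both lists occurred in 109 cells and of neither in 5, so the sides are a lean and not separate types.

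**Figure D2:**
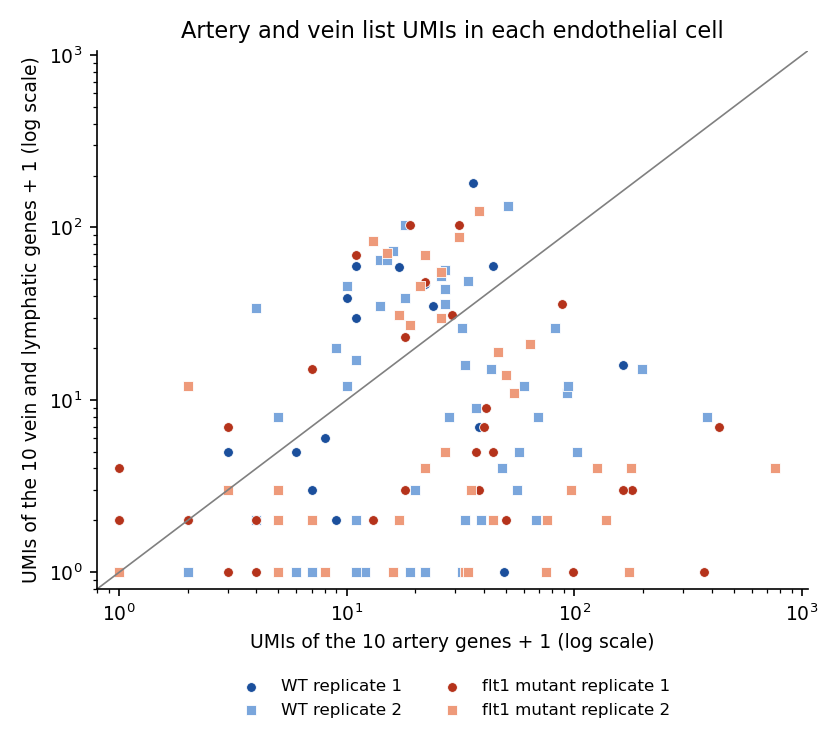
Each point is 1 endothelial cell, with the summed UMIs of the 10 artery genes plus 1 on the horizontal axis and of the 10 vein and lymphatic genes plus 1 on the vertical axis (both log scales), coloured by library. The grey line marks equal UMIs, with 86 artery-leaning cells below it and 51 vein-leaning cells above it, and cells of all 4 libraries lie on both sides.

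Vein-leaning cells differed from artery-leaning cells in a large set of genes outside both lists. Of 1899 genes tested, 177 passed an adjusted p of 0.05 (9.32%), with 128 higher in vein-leaning cells (6.74%) and 49 higher in artery-leaning cells (2.58%). The test set the 2 sides of each library against each other (edgeR quasi-likelihood test with library as a block). The sides were chosen on genes that vary together with others in the same cells, so the count describes how far the 2 sides part and does not establish 2 cell types. Without WT replicate 2 the count was 101. With members of at least 2000 UMIs thinned to 2000, the others left out and the sides set anew, it was 42 of 380 genes.

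The genes of smallest p on the vein side were lgmn, selenop, glula, mrc1b, lyve1a, npl, ap1b1 and fuca2. Legumain (lgmn), a lysosomal protease, was at 66.2, 82.6, 41.6 and 71.3 scaled CPM in artery-leaning cells and at 1745, 1920, 1402 and 1537 scaled CPM in vein-leaning cells. The log2 fold of vein-leaning over artery-leaning was 4.63 ± 0.24 (adjusted p = 4.68e-05), and no library overlapped. Selenop, which carries selenium, was at 153 to 265 scaled CPM on the artery side and 2383 to 2932 scaled CPM on the vein side (log2 fold 3.79 ± 0.23, adjusted p = 6.11e-05).

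Glutamine synthetase (glula) was at 0, 3.44, 0 and 12.6 scaled CPM in artery-leaning cells and at 631, 490, 280 and 516 scaled CPM in vein-leaning cells (adjusted p = 0.000186). The second lyve1 copy, lyve1a, reached 908 to 1947 scaled CPM on the vein side and at most 17.2 on the artery side. The mannose receptor mrc1b was at 235 to 344 against at most 8.38 scaled CPM. Sialic acid lyase (npl, log2 fold 3.52 ± 0.28), the vesicle adaptor subunit ap1b1 (3.07 ± 0.26) and the lysosomal fucosidase fuca2 (2.94 ± 0.26) followed, each higher on the vein side in 4 of 4 libraries. Lyve1a and mrc1b are the second copies of genes in the vein list, and reads of close copies can be split between them.

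The genes of smallest p on the artery side were CABZ01030107.1, crip2, cxcr4a, nkx2.3, crip1, rbpms2b, jam2a and cxcr4b. Crip2, a LIM domain protein, was at 795, 654, 555 and 608 scaled CPM in artery-leaning cells and at 93.9, 45.7, 31.1 and 50.6 scaled CPM in vein-leaning cells (log2 fold -3.59 ± 0.27, adjusted p = 0.000186). The related crip1 moved the same way (-3.44 ± 0.33), as did the RNA-binding rbpms2b (-3.35 ± 0.35) and the junctional adhesion molecule jam2a (-2.31 ± 0.26). The homeobox factor nkx2.3 was at 212 to 583 scaled CPM on the artery side and at most 19.6 on the vein side. CABZ01030107.1, to which the tables used here give no other name, was at 106, 730, 2095 and 2024 scaled CPM on the artery side and at 0, 0, 0 and 10.1 on the vein side.

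The Cxcl12 axis, a chemokine with its receptors that guides migrating vessel cells, parted by side, with the receptors on the artery side and the ligand on the vein side. The receptor cxcr4a was at 252 and 940 scaled CPM in WT and 2380 and 1161 scaled CPM in mutants in artery-leaning cells, and at 13.4, 0, 0 and 0 in vein-leaning cells (adjusted p = 0.0002). It was detected in 44.2% of artery-leaning and 1.96% of vein-leaning cells. Cxcr4b was at 318, 138, 784 and 599 scaled CPM on the artery side and at 0, 13.1, 0 and 0 on the vein side (adjusted p = 0.000718). The ligand cxcl12a went the other way, at 172, 51.6, 76.3 and 75.4 scaled CPM against 845, 575, 561 and 1203 (log2 fold 3.20 ± 0.31, adjusted p = 0.000425), and was detected in 16.3% of artery-leaning and 58.8% of vein-leaning cells. Of the 4 tested genes of this axis 1 was called on the vein side and 2 on the artery side, against 6.74% and 2.58% of all genes. Ackr3b was not called (log2 fold -0.71 ± 0.24, adjusted p = 0.125).

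**Figure D3:**
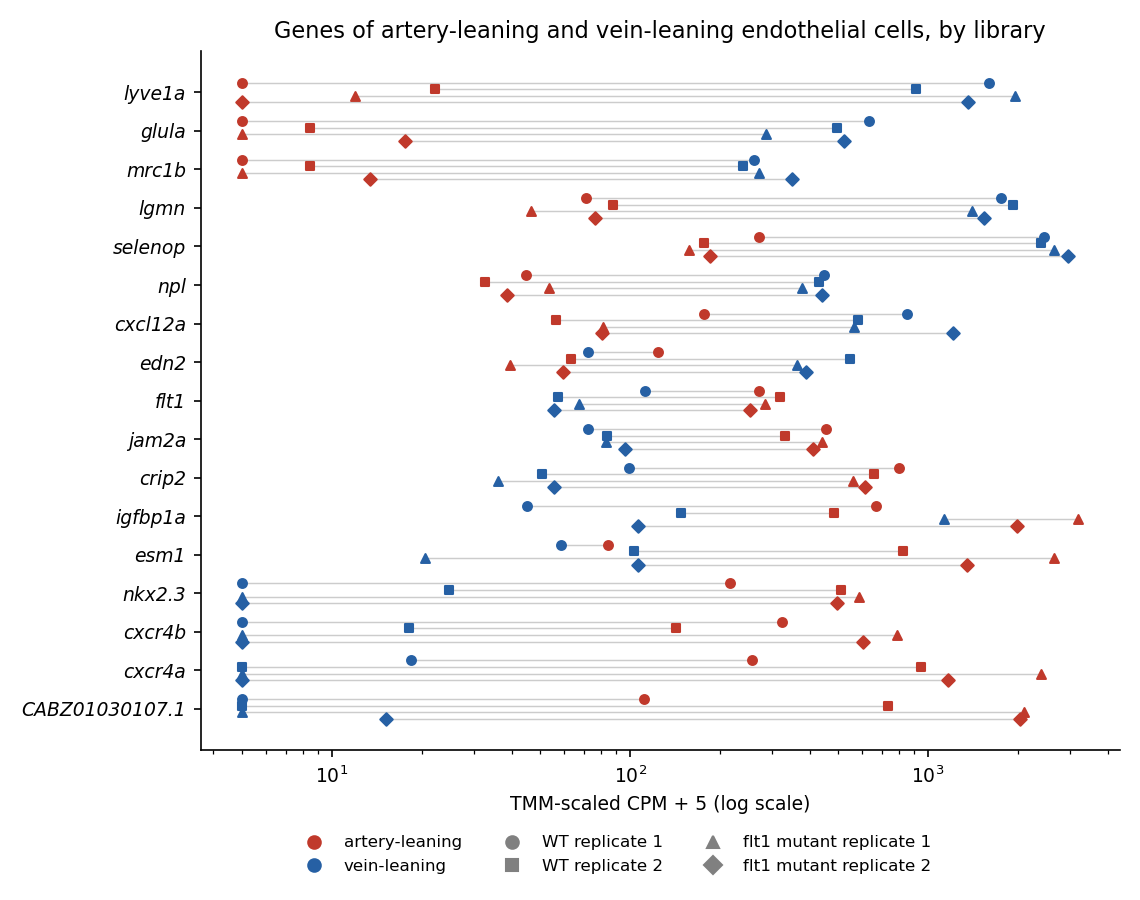
Scaled CPM plus 5 (horizontal axis, log scale) of 17 genes outside both lists in the artery-leaning (red) and vein-leaning (blue) cells of each library (symbols), joined by a line per library. In every library lgmn, selenop, lyve1a and cxcl12a lie higher in vein-leaning cells and cxcr4a, cxcr4b, crip2 and flt1 higher in artery-leaning cells.

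Of 4 tested Vegf receptors and neuropilins, 1 was called on each side, against 6.74% of all genes on the vein side and 2.58% on the artery side. Flt1 was at 265, 313, 277 and 247 scaled CPM in artery-leaning cells and at 107.4, 52.2, 62.3 and 50.6 scaled CPM in vein-leaning cells (log2 fold -2.09 ± 0.30, adjusted p = 0.0028), with no overlap, and was detected in 59.3% and 23.5% of the cells. The neuropilin nrp2b, a co-receptor for Vegfc, was higher on the vein side (2.05 ± 0.36, adjusted p = 0.00809). Kdrl was at 371 to 767 scaled CPM on the artery side and 657 to 886 on the vein side, given without a test because kdrl is a marker of the rule.

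The apelin receptors did not part by side at this depth. Aplnra was at 331, 313, 326 and 620 scaled CPM in artery-leaning cells and at 658, 346, 670 and 516 scaled CPM in vein-leaning cells. Its log2 fold was 0.44 ± 0.27 (adjusted p = 0.444), with higher vein values in 3 of 4 libraries, and detection was 61.6% and 72.5%. Aplnrb gave -0.38 ± 0.54 (adjusted p = 0.781). The ligand apln was detected in 27.9% of artery-leaning and 5.88% of vein-leaning cells and had too few UMIs for the test.

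Of the 14 tip cell genes, 4 could be tested, and esm1 and cxcr4a were called on the artery side, against 2.58% of all genes. Esm1, a secreted proteoglycan of sprouting vessels, was at 79.5, 819, 2643 and 1349 scaled CPM in artery-leaning cells and at 53.7, 97.9, 15.6 and 101 scaled CPM in vein-leaning cells (log2 fold -3.69 ± 0.66, adjusted p = 0.00844). The 2 sides lay close in WT replicate 1 and far apart in the other libraries. The peptide adma had its higher values on the vein side in 3 of 4 libraries and did not pass (1.35 ± 0.42, adjusted p = 0.0904). The adhesion molecule mcamb did not pass either (-0.99 ± 0.28, adjusted p = 0.0626).

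Notch genes had 1 call in 9 tested genes, a share near the 9.32% of all genes and no result about the list. The call was the hairy-related repressor her6, at 9500, 6718, 6494 and 7996 scaled CPM on the artery side and 6669, 4518, 4096 and 3134 on the vein side (log2 fold -0.77 ± 0.19, adjusted p = 0.0359). The Notch target hey1 was at 92.7 and 217 scaled CPM in WT and 458 and 599 scaled CPM in mutants on the artery side and at 188, 52.2, 46.7 and 30.3 on the vein side (adjusted p = 0.111). Sox7, a marker of the rule and so given without a test, was at 898 to 1443 scaled CPM on the artery side and 420.5 to 465 on the vein side. Other factors called on the artery side were the zinc finger factor gata2a (-1.10 ± 0.28, adjusted p = 0.0456) and the Bmp target id1 (-0.89 ± 0.22, adjusted p = 0.0377). The haematoendothelial factor lmo2 and the ligand bmp16 were called on the vein side (0.82 ± 0.20 and 1.201 ± 0.27, adjusted p = 0.0383 and 0.0269).

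Among endothelin genes, edn2 and ece1, the enzyme that matures endothelins, were called on the vein side. These were 2 of 6 tested in the endothelin and adrenomedullin list, with 0 on the artery side, against 6.74% and 2.58% of all genes. Edn2 was at 119, 58.5, 34.7 and 54.5 scaled CPM in artery-leaning cells and at 67.1, 542, 358 and 384 in vein-leaning cells (adjusted p = 0.026), the reverse order in WT replicate 1. The growth factor igf2b (1.38 ± 0.29, adjusted p = 0.0188), the matrix protease mmp2 (2.36 ± 0.36, adjusted p = 0.00347) and the glycolytic regulator pfkfb3 (2.83 ± 0.31, adjusted p = 0.00069) were also higher on the vein side. The basement membrane collagens col4a2 and col4a1 were higher on the artery side (-1.68 ± 0.26 and -1.30 ± 0.34, adjusted p = 0.00405 and 0.0481), with podxl, an apical sialomucin (-2.11 ± 0.48, adjusted p = 0.0277), and the glycolytic enzyme aldoab (-2.06 ± 0.35, adjusted p = 0.00657; with a minimum of 2 markers aldoab turned to 3.09).

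Immediate early genes, which also respond to dissociation, had 3 calls on the vein side (fosb, fosl1a and atf3) and 0 on the artery side among 20 tested. All genes gave 6.74% and 2.58% on these sides, and the list had a median log2 fold of 0.17. Fosb was at 358, 344, 520 and 608 scaled CPM on the artery side and 738, 829, 1464 and 1062 on the vein side. Among genes of other cell types, ictacalcin (icn), an S100 protein of epidermis, was called on the artery side (-2.71 ± 0.69, adjusted p = 0.0437) and the 11 tested epidermal genes had a median log2 fold of -1.90. Both values include the deepest cells of WT replicate 2 and flt1 mutant replicate 1, which were artery-leaning with 42.8% and 43.5% epidermal UMIs. The 14 tested muscle genes had 0 calls and a median of 0.05. The 5 tested fibroblast and mural genes had 0 calls and a median of 1.36, toward the vein side. Of these, col1a2 was at 344, 286, 132 and 541 scaled CPM on the artery side. On the vein side it was at 1530, 144, 716 and 1719 (log2 fold 1.36 ± 0.51, adjusted p = 0.168). The part of such RNA in other vein-side values was not tested. Without members over 5% epidermal UMIs the number of calls was 197, and without those over 5% muscle UMIs 175.

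The share of endothelial cells among retained cells was lower in mutants under the main rule, but its direction changed with some cell limits. The test cannot pass its threshold with these numbers of libraries. The share was 0.756% (95% Clopper-Pearson interval 0.480 to 1.13) and 0.792% (0.594 to 1.04) in WT and 0.696% (0.470 to 0.992) and 0.700% (0.498 to 0.956) in mutants. The means were 0.774% ± 0.0257 and 0.698% ± 0.00323 (SD, n = 2 libraries each), and the exact two-sided permutation test gave p = 0.333, the smallest that 2 against 2 libraries allow. Over cells with more than 1000 UMIs alone the mutants were higher by 0.163 percentage points. Intervals cover counting error only.

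The share of vein-leaning cells among those with a lean was 52.4% (29.8 to 74.3) and 34.6% (21.97 to 49.1) in WT and 39.3% (21.5 to 59.4) and 30.6% (16.3 to 48.1) in mutants. The difference of -8.58 percentage points had an exact permutation p of 0.667, and it was 0.305 points without WT replicate 1, the library with the fewest endothelial cells.

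No gene passed the threshold between WT and flt1 mutant endothelial cells. Of 4072 genes tested on UMI sums per library, 0 had an adjusted p under 0.05 (0.0%) in the edgeR quasi-likelihood test. At an unadjusted p under 0.05 there were 259 (6.36%), 140 higher in mutants (3.44%) and 119 lower (2.92%), and for 1466 genes (36.0%) the 2 WT and 2 mutant libraries did not overlap. DESeq2 called 5 genes, and edgeR called 34 without WT replicate 1 and 33 without WT replicate 2, where the lone WT library is assumed to vary like the mutants. On simulated counts the genotype test recovered 1 of 100 genes changed 2-fold and 77 of 100 changed 8-fold, so 0 calls leaves small changes undecided. The simulation gave every gene the same dispersion and no UMIs concentrated in single cells, so recovery in the real sums may differ. The genes below are therefore given by their values.

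Igfbp1a, a secreted binding protein that holds insulin-like growth factors, was higher in both mutant libraries than in both WT libraries, without passing the adjusted threshold. It was at 298 and 332 scaled CPM in WT endothelial cells and at 2186 and 1209 scaled CPM in mutants, from 54, 161, 531 and 484 UMIs in 7, 15, 11 and 19 cells. The log2 fold change was 2.42 ± 0.34 (adjusted p = 0.532), and no single cell held more than 11.8% of the UMIs. The remaining retained cells were level, with means of 102 and 112 scaled CPM in WT and mutants.

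The edgeR test of this difference between endothelial and other cells passed for igfbp1a (log2 2.25 ± 0.39, adjusted p = 5.31e-06). That test reuses the endothelial sums of the genotype test and adds no independent support. Its calls over all genes fell from 137 to 1 with DESeq2 and to 9 with thinned members. The same limit holds for every gene below that is set against the remaining cells. Igfbp1a was itself higher in artery-leaning cells (-2.62 ± 0.48 for vein over artery, adjusted p = 0.00961). Within artery-leaning cells it was at 663 and 478 scaled CPM in WT and 3177 and 1978 in mutants, again without overlap. Within vein-leaning cells it was at 40.3 and 144 in WT and 1121 and 101 in mutants, and these overlapped.

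The Cxcl12 receptor cxcr4b was at 133 and 86.6 scaled CPM in WT and 465 and 357 scaled CPM in mutants (log2 fold change 1.95 ± 0.31, adjusted p = 0.532). Its UMIs came from 1 and 4 WT cells and 4 and 10 mutant cells, and 18.9% came from 1 cell. Its effect exceeded that in the remaining cells (1.62 ± 0.41, adjusted p = 0.0106). The scavenger receptor for Cxcl12, ackr3b, was at 309 and 268 against 457 and 555 scaled CPM (0.82 ± 0.24, adjusted p = 0.694). Of the 4 tested genes of the axis 2 had an unadjusted p under 0.05, both toward higher values in mutants, against 3.44% of all genes. The ligand cxcl12a overlapped, at 420 and 212 in WT and 206 and 342 in mutants (-0.16 ± 0.42, adjusted p = 0.994).

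Cxcr4a and esm1 were lowest in WT replicate 1 and highest in flt1 mutant replicate 1. Esm1 was at 55.2 and 521 scaled CPM in WT and 1573 and 830 scaled CPM in mutants (1.99 ± 0.89, adjusted p = 0.829). Cxcr4a was at 122 and 563 in WT and 1412 and 692 in mutants (1.57 ± 0.71, adjusted p = 0.829). For both genes the libraries did not overlap between genotypes, the difference did not pass, and the 2 WT libraries lay far from each other. Dll4 was at 563 and 1006 against 1157 and 1292 scaled CPM (0.63 ± 0.32, adjusted p = 0.829). Over the 9 tested tip cell genes 0 had an unadjusted p under 0.05.

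The Notch list had 13 of 15 tested genes with a positive log2 fold change and a median of 0.35 against -0.02 over all genes. Unadjusted p-values under 0.05 were found for hey1, notch3 and the ligand dlc, each toward higher values in mutants (3 of 15, against 3.44% of all genes). Hey1 was at 116 and 146 scaled CPM in WT and 292 and 365 scaled CPM in mutants (1.31 ± 0.25, adjusted p = 0.552), and its effect exceeded that in the remaining cells (1.57 ± 0.40, adjusted p = 0.0146). Notch3, a receptor best known from mural cells, had 1, 7, 28 and 24 UMIs with 35.0% of them in 1 cell. Dlc was at 88.3 and 96.9 against 140 and 157 scaled CPM (0.67 ± 0.23). Notch1b was at 22.1 and 61.8 against 65.9 and 89.96 scaled CPM (0.76 ± 0.48, adjusted p = 0.846).

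**Figure D4:**
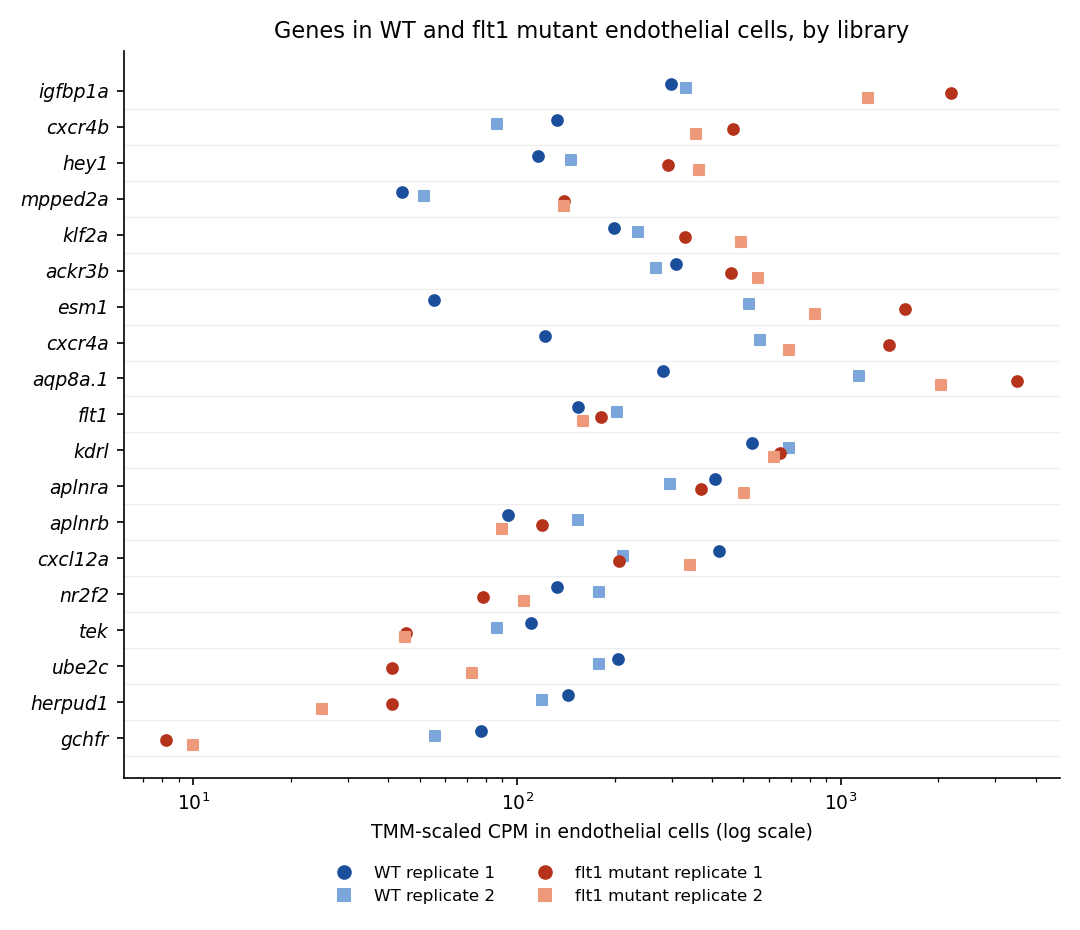
Scaled CPM in endothelial cells (horizontal axis, log scale) of 19 genes in the 2 WT (blue) and 2 flt1 mutant (red) libraries, with circles for replicate 1 and squares for replicate 2. Igfbp1a, cxcr4b and hey1 do not overlap between genotypes, while flt1, kdrl, aplnra, aplnrb and cxcl12a do, and none passed the adjusted threshold.

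The artery and vein lists leaned in opposite directions, without a call in either. All 6 tested artery genes had positive log2 fold changes (median 0.65), with an unadjusted p under 0.05 for aqp8a.1 and dlc (2 of 6, against 3.44% of all genes). Of 7 tested vein and lymphatic genes, 6 had negative values (median -0.51), and the nuclear receptor nr2f2, which sets venous identity, was at 133 and 179 scaled CPM in WT and 78.2 and 105 scaled CPM in mutants (-0.77 ± 0.28, adjusted p = 0.768). Summed artery list UMIs were 2426 and 3630 CPM in WT and 6483 and 5257 CPM in mutants, and summed vein list UMIs 2893 and 1885 against 1756 and 1651 CPM. Of the artery sums, aqp8a.1 alone, found in 29 cells, made up 271 and 992 CPM in WT and 3167 and 1871 CPM in mutants. The split of cells by side did not follow the artery sums in every library. Flt1 mutant replicate 1 had the highest artery sum, yet its vein-leaning share (39.3%) exceeded the 34.6% of WT replicate 2. Igfbp1a, cxcr4b and esm1 were called on the artery side, and hey1 was not. The part of the split in the genotype values of these 4 genes was not tested beyond the values within each side given above.

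Of 19 tested cell cycle genes, 0 were called. There were 6 with a positive log2 fold change and 5 with an unadjusted p under 0.05, each of the latter toward lower values in mutants against 2.92% of all genes, and the list's median was -0.52. The ubiquitin-conjugating enzyme ube2c, which acts at mitotic exit, was at 204 and 179 scaled CPM in WT and 41.2 and 72.5 scaled CPM in mutants (-1.69 ± 0.32, adjusted p = 0.532). Its symbol is carried by 2 rows of the files, of which this is 1. Cyclin B (ccnb1) was at 60.7 and 90.7 against 24.7 and 24.99 scaled CPM, and the mitotic kinase aurkb, mki67 and hmgb2a made up the 5. These came from 17 to 29 cells, except hmgb2a, which was in 134 cells at 2711 and 2662 against 1782 and 1857 scaled CPM. The remaining retained cells also had lower mutant means, at 119.9 against 78.4 scaled CPM for mki67 and 31.4 against 22.1 scaled CPM for ccnb1. The share of endothelial cells with UMIs of 3 or more cell cycle genes overlapped between genotypes. It was 43.5% and 58.5% in WT and 40.0% and 51.3% in mutants (exact permutation test, p = 0.667).

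Other list members with an unadjusted p under 0.05 toward higher values in mutants were the flow-responsive factor klf2a (199 and 237 against 329 and 492 scaled CPM), the hypoxia factor epas1b (11.04 and 28.9 against 53.5 and 77.5), ets2, plvapa, tgfb1a, bmp16 and elmo1, a partner of Rac exchange factors. Toward lower values were the angiopoietin receptor tek (110 and 86.6 against 45.3 and 44.98 scaled CPM, -1.09 ± 0.31), lmo2 and tgfbr2b. Adjusted p-values of these genes lay at 0.694 or above. Genes of other cell types in the same class were her4.1, col1a1a and notch3, with 54.1%, 43.1% and 35.0% of their UMIs in 1 cell, and all 3 were toward higher values in mutants.

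Among the 12 genes of smallest p that did not overlap, igfbp1a and cxcr4b were in the lists and 10 were not. For si:ch211-121a2.2 the 2 WT libraries gave 1 UMI each, against 44 and 77 in mutants (log2 fold change 5.77 ± 0.44, adjusted p = 0.0714), and the remaining cells had the same difference, at 3.04 and 4.38 against 212 and 203 scaled CPM. It was called in 11 of 17 other settings, with log2 fold changes of 4.46 to 6.29 and adjusted p-values of 9.38e-19 to 0.248. ARF5, a listing of a vesicle GTPase that stands beside a separate arf5 row, was at 894 and 995 against 140 and 267 scaled CPM in endothelial cells and 165 and 138 against 67.2 and 74.3 in the others. The ribosome assembly factor nsa2 was at 491 and 501 against 218 and 200, and at 469 and 442 against 215 and 219 in the others. For these 3 genes the endothelial effect did not pass against the remaining cells (adjusted p = 1, 0.278 and 1).

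The phosphoesterase mpped2a was at 44.2 and 51.5 scaled CPM in WT and 140 and 140 scaled CPM in mutants (1.51 ± 0.27), with 18.3 and 15.0 in the remaining cells, a difference of effects that passed (adjusted p = 0.0162). Herpud1, of the endoplasmic reticulum stress response, was at 144 and 120 against 41.2 and 24.99 (-2.01 ± 0.36), and gchfr, which regulates tetrahydrobiopterin synthesis, at 77.3 and 55.6 against 8.23 and 10.0 (-2.74 ± 0.47). Both effects differed from that in the remaining cells (adjusted p = 0.00126 and 0.0342). Si:dkey-28n18.9, at 204 and 216 against 82.3 and 70.0, did not pass that test (adjusted p = 0.412). The membrane protein emp2 (-1.47 ± 0.24) and the histone hist1h4l (2.28 ± 0.42), one of many near-identical histone genes, had the same direction in the remaining cells, and col28a2a had 0, 0, 15 and 17 UMIs in 4 cells.

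Over all genes, the genotype effect in endothelial cells differed from that in the remaining retained cells for 137 of 16620 genes (0.824%). The effect was higher in endothelial cells for 94 and lower for 43. This test uses the same endothelial sums as the genotype test. Its sign is relative to the remaining cells and is not the direction in mutant endothelial cells. For mb (log2 4.12), endothelial values overlapped, at 35.2 and 64.5 scaled CPM in WT and 2.68 and 109 in mutants. The remaining cells were at 3.21 and 12.6 scaled CPM in WT and 0.228 and 0.604 in mutants. In 79 of the 137 over 50% of the endothelial UMIs came from 1 cell, and in 65 over 80% came from 1 library. Genes of smooth muscle led on the lower side, with tagln at 153, 11, 1 and 0 UMIs and acta2 at 249, 3, 3 and 0 UMIs. The keratin krt91 (10, 64, 14 and 432 UMIs) and integrin itgb4 (0, 1, 10 and 56 UMIs), genes of epidermis, were among those leading the higher side. None of the 16 genes of smallest p was in an endothelial list.

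Of the 137, 77 did not overlap between genotypes, and 19 of these also had under 25% of their UMIs in any 1 cell. The share without overlap among all 16620 genes was not counted. The 36.0% of the genotype test is over 4072 genes, which include 51 of the 137, so it is no like background. The 137 were also chosen on the same endothelial sums. Among the 19, those higher in mutant endothelial cells were igfbp1a, her15.1, CABZ01030107.1, cxcr4b, hey1, mpped2a, epcam, fgf4, gstt1a, kcnk5b and ca6. For her15.1, CABZ01030107.1 and cxcl20 the log2 values below are differences of effects between the cell classes, not endothelial fold changes. Her15.1, a hairy-related repressor of the Notch pathway, gave 20 and 103 UMIs (WT) against 81 and 234 (mutants) (2.12 ± 0.40, adjusted p = 6.76e-05). It was at 70.5 and 148 against 217 and 418 scaled CPM in endothelial cells. In the remaining cells it fell, at 211 and 211 in WT against 156 and 124 in mutants. CABZ01030107.1 gave 10 and 212 UMIs (WT) against 305 and 485 (mutants) (1.93 ± 0.43, adjusted p = 0.00198). Lower were herpud1, gchfr, cxcl20, a chemokine, serpinb1, lsp1a, lyz, cntfr and scocb. Cxcl20 gave 20 and 33 UMIs (WT) against 5 and 1 (mutants) (-3.80 ± 0.91, adjusted p = 0.00524). Epcam, a gene of epithelia, lyz, a gene of myeloid cells, ca6 and gstt1a were higher in the remaining cells of every library than in the endothelial cells. In the genotype test 11 of 12 epidermal genes had positive log2 fold changes (median 1.08), and the part of other cell types in these values was not tested. These 19 were set apart after their values were seen, and in this comparison DESeq2 called 1 gene and edgeR 86 without flt1 mutant replicate 2.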

How the data were processed

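The authors' Cell Ranger 6.1.1 matrices (version per the file headers; build GRCz11 per the submitters' processing notes) were deposited as whole UMI counts per gene and barcode, without normalization, for 4 libraries and 25432 genes. The labels name version 2 of the chemistry and the methods version 3. Free RNA in droplets can add low counts of other cell types. The members and gene lists were chosen with earlier results of these data known. UMI counts of the members were summed per library, since libraries and not cells are the replicates. Genotype p-values measure the spread between libraries, which may be technical. Where library was a block, p-values measure how differences within libraries vary, which may be technical too. edgeR 4.0.16 in R 4.3.3 (estimateDisp, glmQLFit, glmQLFTest, TMM, filterByExpr, Benjamini-Hochberg over all genes tested, called at 0.05) gave 3 tests: genotype; endothelial against other retained cells by genotype with library as a block; and artery-leaning against vein-leaning cells with library as a block and the genes of both lists left out. The SE comes from the F statistic. Each test was run on simulated counts, drawn with the same dispersion for every gene, with 100 genes changed 2-fold and 100 changed 8-fold. The genotype test recovered 1% and 77% of them, the test against other retained cells 1% and 31%, and the artery-vein test 34% and 81%. DESeq2 1.42.0, no scaling factors, no filter, other cell limits, thinning to 2000 UMIs and leaving out libraries were alternatives. Members with fewer than 2000 UMIs were left out of the thinned setting. Neurons used to compare detection had at least 3 of 7 neuronal genes. Their share is no background level for genes that neural cells express, as the paper reports for apln and vegfaa.

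The text names up to 8 called genes per direction and test by smallest p, up to 6 per direction of the genotype test that did not overlap between libraries, list members with p under 0.05, the genes the study turned on, and the 20 genes of largest ratio over other cells; the 19 genes that close the report and her15.1, CABZ01030107.1 and cxcl20 among them were added after values were seen. Python 3.11.15 with scipy 1.17.1 gave exact tests and intervals.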

Additional observations from a re-analysis of the deposited data

Results flagged for a closer look

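The 16 genes of smallest p in the test of endothelial against other retained cells were set aside because the genotype effect differed between the 2 cell classes. On the log2 scale, effects higher in endothelial cells were 4.31 for CABZ01074130.1, 3.73 for krt91, 6.45 for stm, 13.23 for hoxb13a, 2.99 for tmsb1, 5.88 for itgb4, 12.41 for col28a2a and 4.12 for mb. Effects lower in endothelial cells were -7.30 for tagln, -14.20 for kcnj11l, -6.03 for acta2, -13.75 for csrp1b, -5.40 for pvalb9, -5.23 for agr2, -3.36 for tpm1 and -3.55 for col9a2. The fitted values of genes with libraries at 0 (hoxb13a, col28a2a, kcnj11l and csrp1b, for example) depend on the prior count and are no bound on a fold.

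One cell held 92.7% of the endothelial tagln UMIs, 97.6% of acta2, 100% of kcnj11l and csrp1b, 93.3% of col9a2, 94.6% of pvalb9 and 93.6% of agr2. On the higher side 1 cell held 91.3% for CABZ01074130.1, 96.2% for stm, 59.3% for hoxb13a, 61.2% for itgb4 and 51.2% for krt91. For tmsb1, mb and col28a2a the largest share of 1 cell was 37.4%, 23.9% and 43.8%.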

How the results depend on the processing

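For the genotype comparison, 0 genes were called with library totals, with globins under 2%, without members over 5% muscle UMIs, with thinned members (901 genes tested) and with the replicate block. DESeq2 called 5, no filter 187, a minimum of 2 markers 19, of 4 markers 1, mitochondrial UMIs under 10% 2, leaving out members over 5% epidermal UMIs 1, and leaving out the 10% of most UMIs 3. Chosen after seeing the data, a minimum of 6 markers called 4 and a crossed replicate block 3. Leaving out 1 library gave 0 to 34 (34 without WT replicate 1, 33 without WT replicate 2). Same-numbered libraries did not deviate together (r = -0.164), so the labels' numbers were not taken as pairs.

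For endothelial against other cells, 137 calls became 1 with DESeq2, 24 with 2 markers, 56 without the 10% of most UMIs, 9 with thinned members, 85 with 6 markers and 61 among genes of the genotype test only (the last 2 added after seeing the data), and 86 to 131 without 1 library, lowest without flt1 mutant replicate 2. The effect of col9a2 reversed to 0.16 with 4 markers, 2.48 without the 10% of most UMIs, 0.052 with 6 markers and 2.09 without WT replicate 1, and it ran from -5.85 to 2.09 without 1 library.

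For artery-leaning against vein-leaning cells, 177 calls became 450 without a filter, 58 with 2 markers, 282 with mitochondrial UMIs under 10% and 42 with thinned members, and 101 to 189 without 1 library; aldoab reversed to 3.09 with 2 markers. Cells with no UMI of the other list were not compared, because WT replicate 2 and flt1 mutant replicate 2 held no such vein-leaning cell. The difference in endothelial share became 0.163 points over 1000 UMIs, -0.591 with 2 markers and 0.0800 with mitochondrial UMIs under 10%; without 1 library it was -0.0944 to -0.0581. The vein-leaning difference was -17.5 to 0.305 points without 1 library. The cause of these shifts was not tested. Each library held few endothelial cells, and genes under the count filter could not be tested.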
